A study of Mus musculus with 12 samples.

Results

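Mural granulosa cells (MGCs) were compared with cumulus cells in the Sphk1/2gc-/- libraries alone, 3 MGC libraries against 3 cumulus libraries, to see which differences between the 2 cell types remained without the sphingosine kinases and which vanished. The 2 deposited tables, one for each cell type, shared 26382 genes by Ensembl ID, and 14983 genes were kept whose mean in either knockout cell type reached 0.5 FPKM (fragments counted per length of exon and per total fragments of the library). Of these, 10369 reached that mean in both cell types, 3690 in MGCs only and 924 in cumulus cells only. The genes nearest the limit were Ppfia3, with a mean of 0.50015 FPKM in MGCs, just inside it, and Gm17276, with 0.499 FPKM in MGCs, just outside.

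Knockout females were Sphk1-/-, Sphk2 fl/fl and carried Fshr-Cre. Controls were labelled only as controls, with no account of their alleles in the labels. They are called WT here, the study's name for its comparison mice. The Sphk1 null allele was carried in the whole body, whereas Sphk2 was removed only where Fshr-Cre, which acts in granulosa cells, was active. All females were 21 to 23 days old and received 5 IU eCG followed 48 h later by 5 IU hCG, and RNA was taken 2 h after hCG. Each genotype gave 3 MGC and 3 cumulus libraries, 12 in all. Nothing in the labels says that the replicates of a group came from separate animals, so the p-values measure the spread between these libraries only.

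MGCs line the wall of the antral follicle and cumulus cells surround the oocyte. Luteinizing hormone acts first on MGCs, which release the EGF-like factors AREG, EREG and BTC, and these in turn act on the EGF receptor of cumulus cells, where they start expansion of the hyaluronan matrix and the resumption of meiosis. Sphingosine kinases phosphorylate sphingosine to sphingosine-1-phosphate (S1P), a lipid signal that acts through its own receptors and on intracellular calcium.

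Expression was compared as log2(FPKM + 1), and every log2 fold change below is MGC minus cumulus on that scale, so that a positive value means a higher level in MGCs and low genes are understated. A gene was called at a limma adjusted p of 0.05 or less and a 2-fold difference. The interaction is the difference between the cell types in knockout libraries minus that in WT libraries. From the FPKM steps of single reads, 16100365 to 19761604 reads on genes were recovered per library, and 90.4% to 91.2% of values came out whole to within 0.02 reads. Because each cell type was deposited as its own table, cell type and table cannot be told apart. In bulk RNA, fewer cells of a type and less RNA per cell cannot be told apart either.

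Several features of the libraries bear on all results. The third knockout MGC library stood apart: its correlation with the other MGC libraries was 0.919 to 0.944, against 0.988 between the first and second knockout MGC libraries, so results that rest on it are also given without it. To a smaller degree the first knockout cumulus library also differed, with a correlation of 0.976 with the second and with the third, against 0.989 between those. Its summed FPKM of mitosis genes was 977, against 663 and 575. The median log2 fold change of all 14983 genes was 0.58, and subtracting each library's median lowered it by 0.81 to -0.23. Of the called genes, 69.6% were higher in MGCs, a share that became 33.5% with that centring, 59.8% with upper-quartile scaling and 48.9% with the trend of GC content and transcript length removed. The median rose with GC content, from -0.11 in the lowest of 10 equal groups of genes by GC content to 1.39 in the highest, and in WT libraries from -0.24 to 1.52. The interaction varied far less over the same groups of genes, between 0.15 and -0.02. Of all genes tested 33.1% were MGC-high and 14.4% cumulus-high, shares that were 14.6% and 28.9% with median centring (43.5% in all) and 26.8% and 18.0% with upper-quartile scaling (44.9% in all). The counts and medians of gene lists below are to be read against these shares and the median of 0.58. Where a list's counts changed direction or moved by over 1.5 times, or its median changed sign, with median centring, those values are given.

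**Figure D1:**
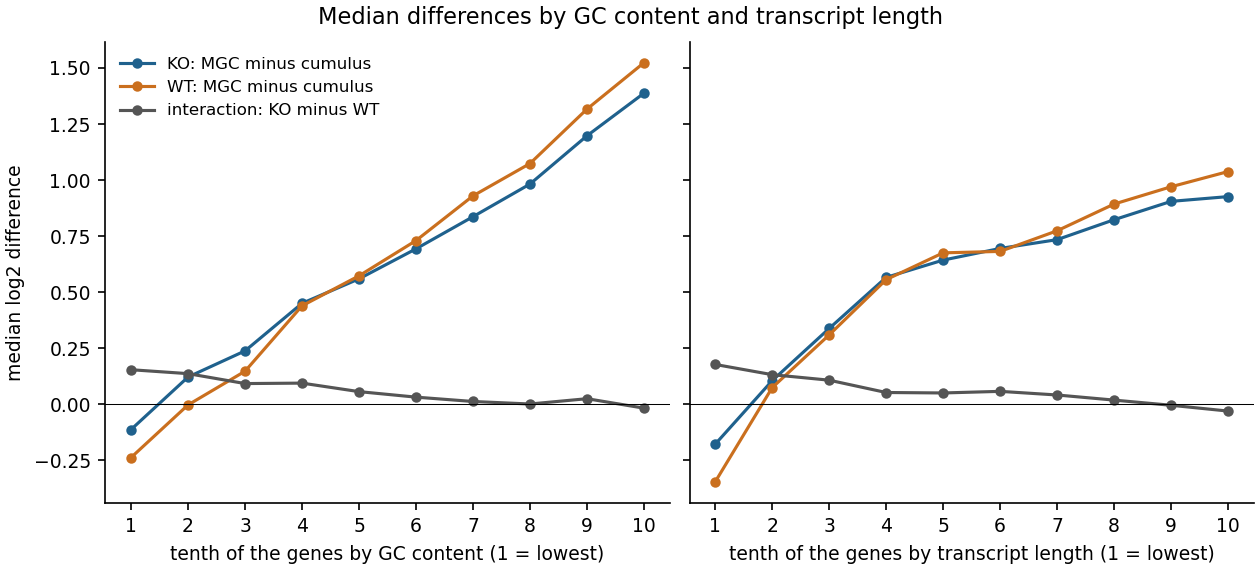
Median log2 difference between MGCs and cumulus cells in knockout (blue) and WT (orange) libraries, and median interaction (grey), for genes sorted by rank into 10 groups of nearly equal size by GC content (left) and transcript length (right). The cell type difference climbed from -0.11 to 1.39 with GC content in knockout libraries and from -0.18 to 0.93 with length, while the interaction stayed between 0.18 and -0.03.

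Most of the difference between MGCs and cumulus cells was present with and without the kinases. In knockout libraries 4954 genes were higher in MGCs (33.1% of those tested) and 2165 higher in cumulus cells (14.4%), 47.5% in all, and without the third MGC library 4774 (31.9%) and 2279 (15.2%), 47.1% in all. In WT libraries the counts were 5296 (34.5%) and 2450 (16%) of 15339 genes. A total of 5989 genes, 40.0% of members, were called in both genotypes with the same sign, 4227 higher in MGCs and 1762 higher in cumulus cells. These made up 84.1% of the 7119 knockout calls and 78.1% of the 7671 WT calls among members. Across 14453 genes tested in both genotypes the 2 sets of fold changes had a Pearson r of 0.919, a description only, since genes are not independent and each pair of values comes from the same tables. The 3 libraries of one cell type lay beyond all 3 of the other for 11324 genes (75.6% of members), with MGCs above for 52.8% and cumulus cells above for 22.7%.

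The cell type difference itself changed with genotype for 526 of 15869 genes tested (3.31%), 199 with a positive interaction (1.25%) and 327 with a negative one (2.06%). A difference counted as lost when it was called in WT, not called in knockout, and its interaction was called. Gained was the reverse, and in either case a difference that missed the limits could be present in the other genotype. Among members, 174 genes (1.16%) had lost a difference that was called in WT libraries, 84 of them MGC-high and 90 cumulus-high in WT. A further 121 genes (0.808%) had gained one, 25 MGC-high and 96 cumulus-high, of which 14 were below the expression limit in WT libraries. Only 7 genes (0.0467%) were called in both genotypes with opposite signs. Another 1501 genes were called in WT alone and 1002 in knockout alone without an interaction call, and were not shown to differ between genotypes. With median centring 166 genes were lost, 133 gained and 8 opposite, and single genes can change class. Of the 499 members with an interaction call, the level moved more between genotypes in cumulus cells than in MGCs for 433 (86.8%), against 59.9% of all members. For the 96 genes that became cumulus-high the median change from WT to knockout was 1.54 in cumulus cells and -0.16 in MGCs. For the 90 genes that lost a cumulus-high difference it was -1.24 in cumulus cells and 0.24 in MGCs.

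How many interactions were called depended on single libraries. Without the third knockout MGC library 261 were positive (1.64% of genes tested) and 349 negative (2.20%), 3.84% in all. The positive and negative counts were 32 and 72 without the first WT MGC library, 41 and 99 without the second, 49 and 98 without the first WT cumulus library and 69 and 130 without the second. They were 61 and 115 without the second knockout cumulus library and 55 and 115 without the third, but 405 and 522 without the first. Without the third WT MGC library 284 and 582 were called, and without the first knockout MGC library 318 and 306.

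**Figure D2:**
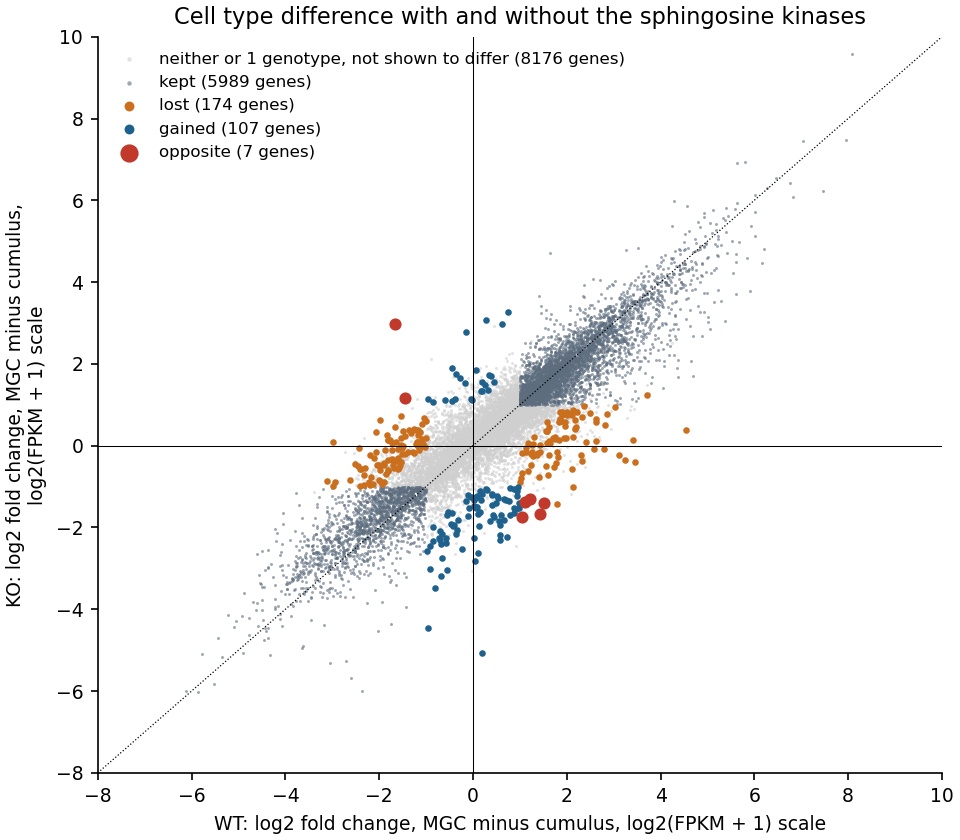
Log2 fold change between MGCs and cumulus cells in WT (x axis) and knockout (y axis) libraries for the 14453 genes tested in both genotypes, each point a gene and the dotted line equality. The 5989 kept genes (dark grey) run along the line, the 174 lost genes (orange) spread to the left and right of centre, the 107 gained genes that could be plotted (blue) above and below it, and the 7 opposite genes (red) lie where the signs differ. KO, knockout.

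The labelled genotypes could not be checked from gene-level FPKM. Sphk1 was low everywhere, at 0.432, 0.557 and 0.104 FPKM in knockout MGCs and 0.0778, 0.456 and 0.557 in knockout cumulus cells, below the limit for members, against 1.68, 1.88 and 0.460 in WT MGCs and 0.0911, 0.0699 and 0.0954 in WT cumulus cells. The knockout MGC values overlapped the third WT MGC library, and 2 of the 3 knockout cumulus libraries were above every WT cumulus library. Sphk2 was measured at 4.51, 4.68 and 6.29 FPKM in knockout MGCs and 5.26, 5.86 and 5.18 in WT MGCs, and at 0.434, 0.572 and 0.752 and 0.403, 0.602 and 0.520 in the cumulus cells of the 2 genotypes. The genotypes overlapped in both cell types. A value over the whole gene does not resolve the floxed exons, so it checks nothing. In both genotypes Sphk2 was higher in MGCs, by 1.95 (SE 0.19) without and 2.09 with the kinases.

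The mural granulosa markers were higher in MGCs, but the listed cumulus markers did not mark the cumulus libraries. All 5 mural granulosa markers were higher in knockout MGCs, with a median of 3.00. Lhcgr, the luteinizing hormone receptor, was measured at 246, 209.6 and 232 FPKM in knockout MGCs and 1.93, 4.62 and 2.82 in knockout cumulus cells, a difference of 5.85 (SE 0.25), adjusted p = 6.5e-06 with limma. The groups did not overlap, and WT libraries gave 4.56. Of the 5 genes listed as cumulus markers none was higher in cumulus cells (1 with median centring), and 3 (Amh, Slc38a3 and Npr2) were higher in MGCs in both genotypes. Amh, which encodes anti-Mullerian hormone, was at 87.3, 219.7 and 226 FPKM in knockout MGCs and 2.16, 0.182 and 0.468 in knockout cumulus cells, 6.54 (SE 0.48) higher in MGCs. Fshr, the receptor of follicle-stimulating hormone, was at 55.0, 61.1 and 73.4 FPKM against 83.0, 60.3 and 50.03, and its groups overlapped in knockout libraries. Of the 10 granulosa genes listed as shared by both cell types 6 were higher in knockout MGCs and none in cumulus cells. Foxl2, a granulosa transcription factor, was at 14.8, 17.4 and 55.9 FPKM in knockout MGCs and 1.89, 1.62 and 1.91 in knockout cumulus cells, 3.18 (SE 0.45) higher in MGCs, and the third MGC library was the highest.

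Genes of other ovarian cells were called MGC-high in the knockout libraries, where 33.1% of all genes were. There 15 of 18 oocyte genes, 10 of 16 theca and stroma genes, 10 of 15 leukocyte genes, 5 of 9 endothelial genes, 5 of 8 surface epithelium genes and all 4 red blood cell genes were higher in MGCs, and none of these lists had a gene called in the other direction. The medians of the 6 lists in that order were 2.36, 1.46, 1.63, 1.04, 1.52 and 4.31. With median centring, where 14.6% of all genes were MGC-high, the MGC-high counts were 12, 5, 4, 1, 4 and 3, with 1 surface epithelium gene cumulus-high. With GC content and length removed they were 16, 7, 3, 1, 4 and 3, with 1 theca and stroma gene cumulus-high. Over all listed genes in both tables, the summed FPKM of the oocyte list was 43.2 to 183 in knockout MGCs and 4.23 to 5.35 in knockout cumulus cells. The corresponding ranges were 179 to 228 and 13.4 to 35.4 for theca and stroma, 40.7 to 218 and 14.3 to 76.6 for leukocytes, 19.4 to 25.4 and 6.35 to 12.5 for endothelium, 40.0 to 55.0 and 18.5 to 28.9 for surface epithelium and 30.3 to 287 and 0.3002 to 1.78 for red blood cells. Bmp15, a growth factor made by the oocyte, was at 3.03, 9.09 and 9.29 FPKM in knockout MGCs and 0.0694, 0.0331 and 0 in knockout cumulus cells. The part of these cells in the differences given here was not tested. In the third knockout MGC library the red blood cell sum was the lowest of the 3, with Hbb-bs at 16.4 FPKM against 152 and 124, and Ptprc, the leukocyte antigen CD45, was at 0.0544 FPKM against 1.37 and 1.51. Ptprc was not called with all libraries (0.86 (SE 0.32)) and was called without the third (1.26).

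**Figure D3:**
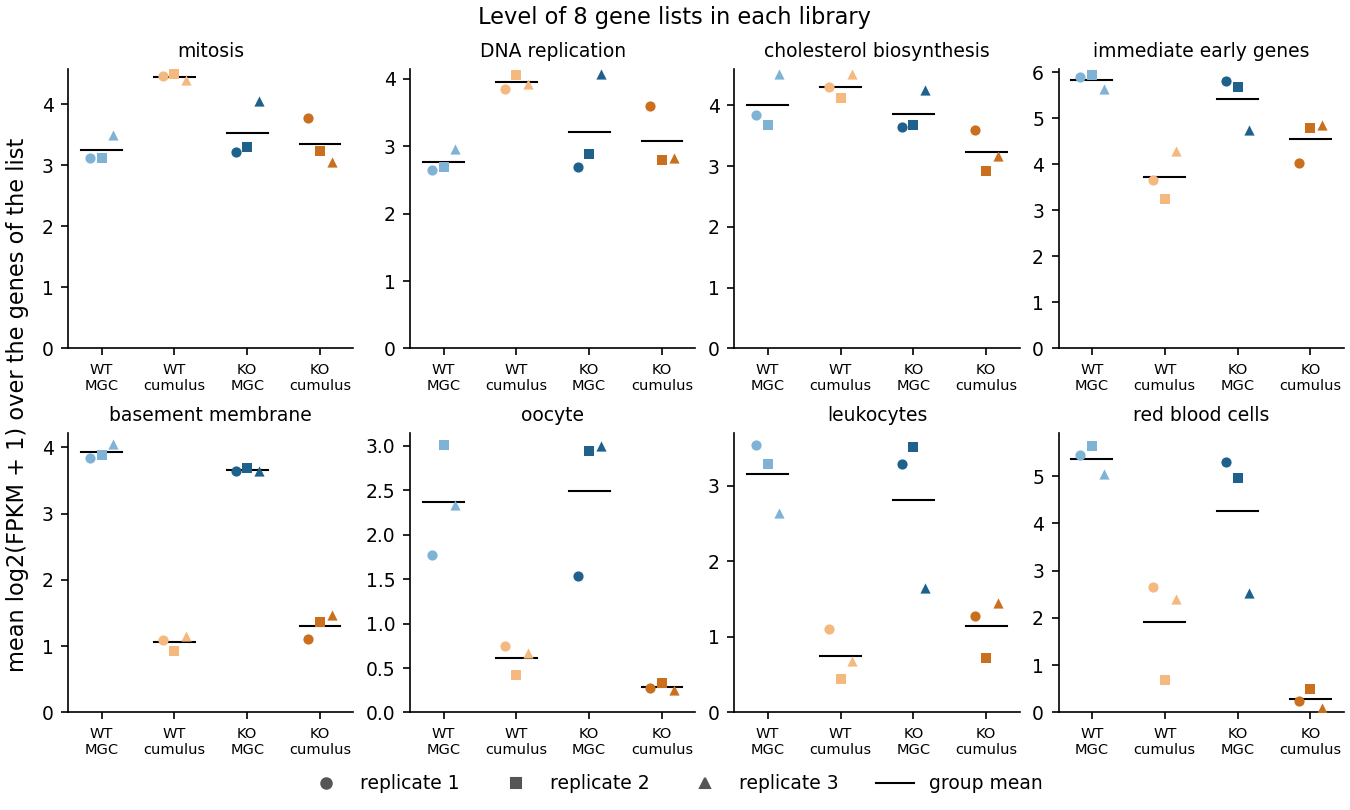
Mean log2(FPKM + 1) over the measured genes of 8 lists in each of the 12 libraries, with symbols for the replicate number and a bar for the group mean. Mitosis and DNA replication genes were higher in WT cumulus cells than in WT MGCs but overlapped between the knockout groups, and basement membrane genes differed in both genotypes. Oocyte, leukocyte and red blood cell genes were higher in MGC libraries within each genotype, with the third knockout MGC library low for the last pair. For red blood cells the highest WT cumulus library, at 2.66, lay above the lowest knockout MGC library, at 2.53.

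Among called genes with a symbol, no overlap and at least 10 FPKM in the higher cell type, the 12 with the largest MGC-high difference in knockout libraries were Mir5125, mt-Tp, Amh, Psap, Prrc2a, Plau, Hyou1, Peg10, H2-Q4, Rpl28, Lhcgr and Hbb-bs, with log2 fold changes from 7.48 down to 5.80, and all 12 were also called in WT. Psap, the precursor of the lysosomal saposins, was at 287, 313 and 274 FPKM in knockout MGCs and 2.63, 2.27 and 2.36 in knockout cumulus cells. Plau, the urokinase plasminogen activator of the ovulating follicle, was at 177, 209 and 80.1 against 1.08, 0.363 and 1.56. Mir5125 and mt-Tp are very short genes, and Rpl28, H2-Q4 and Hbb-bs share reads with close copies, so that these 5 values are uncertain.

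The 12 largest in the other direction by the same rule were mt-Atp6, Spp1, Oaz1-ps, Il23a, Phxr4, Crabp2, Gal, Rgcc, Ftl1, Rpl10-ps5, Fam196a and Id2. Crabp2, which binds retinoic acid, was at 8.92, 9.02 and 5.78 FPKM in knockout MGCs and 228, 385 and 351 in knockout cumulus cells, a difference of -5.17 (SE 0.26) that was -5.35 in WT. Rgcc, a regulator of the cell cycle, was at 259, 215 and 67.0 FPKM against 3347, 5638 and 6009.6, -4.95 (SE 0.51) on the log2 scale. Neither showed an overlap. Phxr4 was listed at 0 in all 3 knockout MGC libraries and at 18.9, 41.6 and 66.3 FPKM in knockout cumulus cells. Oaz1-ps, Rpl10-ps5 and Ftl1 share reads with near-identical copies, and mt-Atp6 has near-identical copies in the nuclear genome, so these 4 are uncertain. Of the 12, Gal and Id2 had no called difference in WT.

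Of 11 measured genes of the EGF-like signals and their receptors 9 were higher in knockout MGCs and 2 in cumulus cells, against 33.1% and 14.4% of all genes, with a median of 1.96 (1.85 over 12 genes in WT). With 2 genes cumulus-high in each case, 4 were MGC-high with median centring, 5 with upper-quartile scaling and 6 with GC content and length removed. Areg, the amphiregulin gene (ENSMUSG00000029378, chr5:91139599-91148432 of GRCm38), was at 1939.8, 1605 and 340.4 FPKM in knockout MGCs and 50.1, 64.5 and 90.8 in knockout cumulus cells. The third MGC library was the lowest but still above all cumulus libraries, and the difference was 3.92 (SE 0.63), adjusted p = 0.0011 with limma, 4.71 without that library. Ereg (epiregulin) had 1628, 1354 and 157 FPKM against 16.1, 21.6 and 31.9 and differed by 4.92 (SE 0.83). Btc (betacellulin) overlapped, with 309.8, 275 and 33.7 FPKM against 45.0, 18.3 and 21.6, and its 2.41 (SE 0.82), adjusted p = 0.031 with limma, was no longer called without either of the first 2 knockout MGC libraries or without the second or the third cumulus library (adjusted p = 0.099, 0.095, 0.096 and 0.092 with limma). Egfr, the receptor of these factors, was itself higher in MGCs, at 10.5, 10.4 and 11.5 FPKM against 1.35, 1.34 and 1.24. Hbegf, another ligand of the receptor, went the other way. At 4.15, 5.47 and 3.40 FPKM in knockout MGCs and 8.90, 12.0 and 18.0 in knockout cumulus cells it was gained, with -1.35 in knockout, 0.77 in WT and an interaction of -2.12. The Hbegf interaction was not called without WT MGC library 1 or 2, or WT cumulus library 1 (adjusted p = 0.054 to 0.062 with limma).

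Because luteinizing hormone acts through cAMP, the 150 bases before the Areg start site (RefSeq, GRCm38.p6, plus strand, chr5:91139449-91139598) are shown with the cAMP response element TGACGTCA in capitals, which begins 61 bases before the start. It was searched on both strands in windows from 250 bases before to 50 after the start, and 1.88% of 27025 promoters and 3.35% of 10043 members with a window held it. Among genes called in both genotypes it was in 3.10% of 3000 MGC-high and 4.66% of 1095 cumulus-high genes with a window. A match is a description, not a site of action.
Areg: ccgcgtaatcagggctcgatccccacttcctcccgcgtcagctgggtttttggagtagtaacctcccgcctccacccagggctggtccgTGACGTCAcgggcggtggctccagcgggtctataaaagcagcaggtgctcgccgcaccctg

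Most steroidogenic genes were higher in MGCs in both genotypes, and Cyp19a1 and Hsd3b1 separated the cell types more without the kinases. Of 20 genes 15 were higher in knockout MGCs and none in cumulus cells (11 and 1 with median centring), with a median of 2.08 (1.60 in WT), and 4 interactions were positive and 1 negative. Cyp11a1, the side-chain cleavage enzyme that makes pregnenolone, was at 181, 160.0 and 58.2 FPKM in knockout MGCs and 1.33, 3.20 and 0.608 in knockout cumulus cells. Cyp19a1, the aromatase (ENSMUSG00000032274, chr9:54165937-54268110), was at 266, 261 and 403 FPKM in knockout MGCs and 16.9, 8.90 and 8.11 in knockout cumulus cells. In WT libraries it was at 132, 144 and 366 and 45.3, 57.4 and 83.7. The groups were apart in both genotypes, but the knockout cumulus libraries lay below every WT cumulus library. The difference was 4.70 (SE 0.30) in knockout and 1.65 in WT, an interaction of 3.05 (SE 0.55), adjusted p = 0.017 with limma, 2.85 without the third knockout MGC library. The Cyp19a1 interaction was not called without WT MGC library 1 or 2, or knockout cumulus library 3 (adjusted p = 0.051 to 0.055 with limma). Hsd3b1, which makes progesterone from pregnenolone, was at 1982, 1829 and 2395 FPKM against 198, 142 and 148 in knockout and 1908, 1579 and 3569 against 757, 837 and 897 in WT, an interaction of 2.25 (SE 0.38), adjusted p = 0.014 with limma. Here too the MGC groups overlapped between genotypes and the cumulus groups did not.

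Hsd17b1, which reduces oestrone to oestradiol, was cumulus-high in WT at -1.67 and lost that difference in knockout, at 0.46, with an interaction of 2.13. Stard4, a cholesterol carrier, was lost in the same direction, from -1.22 to 0.38. The Hsd17b1 and Stard4 interactions were not called without WT MGC library 1 or 2, WT cumulus library 1, 2 or 3, or knockout cumulus library 2 or 3 (adjusted p = 0.062 to 0.12 with limma). Scarb1, the HDL receptor, stayed MGC-high but by less, 3.55 (SE 0.28) against 5.29 in WT, an interaction of -1.74 (SE 0.38). The Scarb1 interaction was not called without WT MGC library 1 or 2, WT cumulus library 1 or 2, or knockout cumulus library 2 or 3 (adjusted p = 0.065 to 0.094 with limma). Star, which carries cholesterol into mitochondria, was at 436, 395 and 47.1 FPKM in knockout MGCs and 19.8, 26.9 and 54.0 in knockout cumulus cells. The third MGC library lay inside the cumulus range. Its 2.67 (SE 0.83), adjusted p = 0.022 with limma, became 3.71 without that library, and it was not called without the first or second MGC library or the first or second cumulus library (adjusted p = 0.073, 0.070, 0.086 and 0.065 with limma) or with median centring. Sult1e1, the oestrogen sulfotransferase, was at 409, 339.8 and 33.1 FPKM against 426, 265 and 256 and was called in neither genotype.

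**Figure D4:**
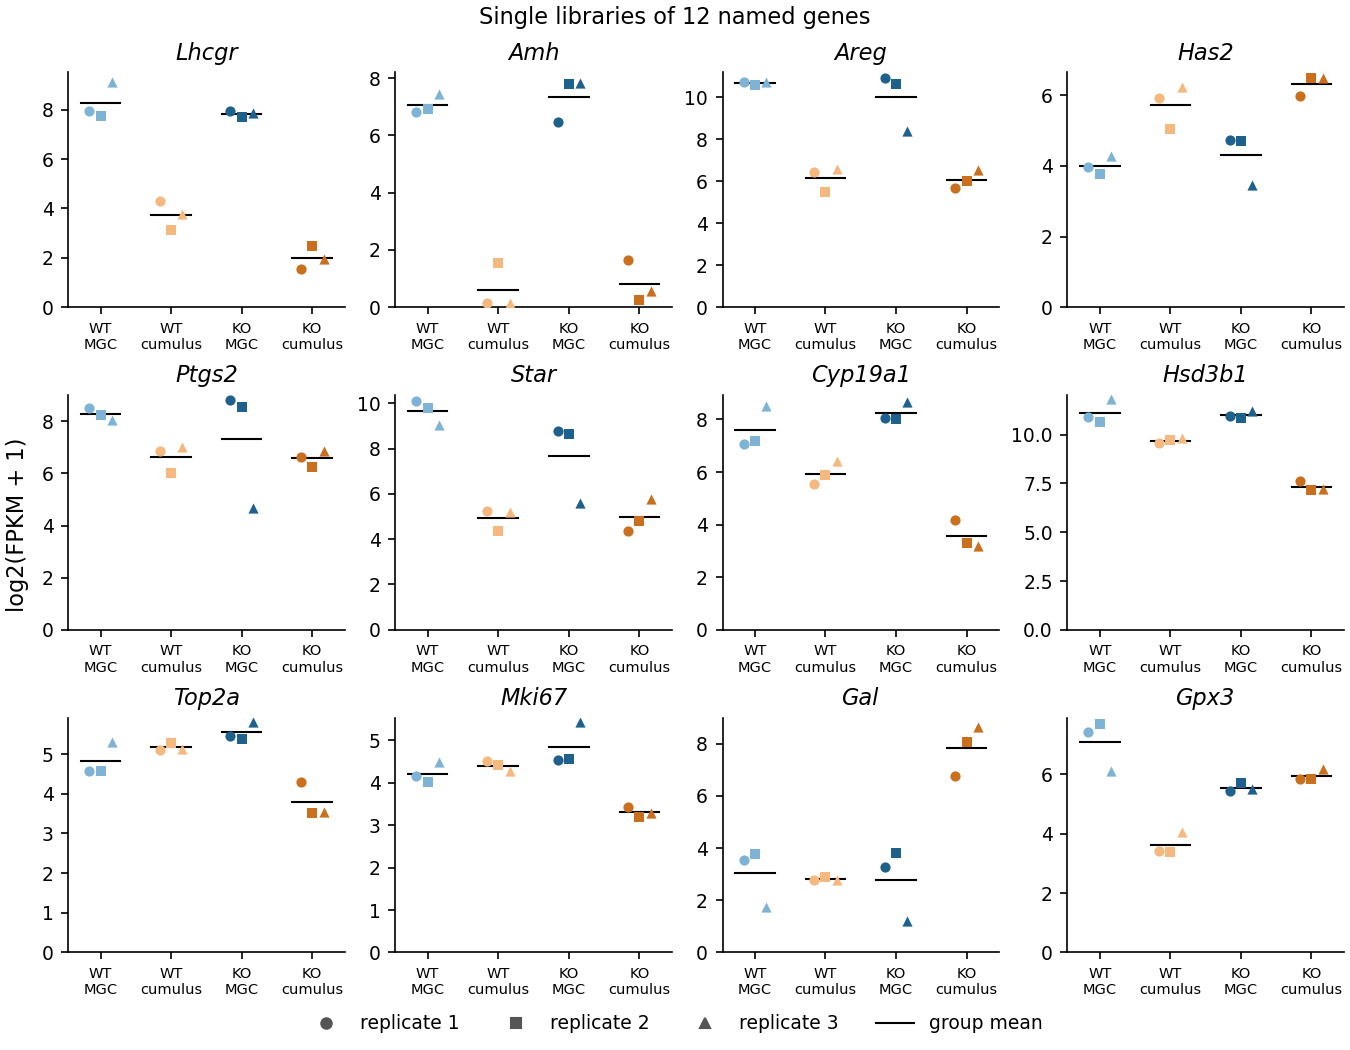
Level of 12 genes as log2(FPKM + 1) in each of the 12 libraries, with symbols for the replicate number and a bar for the group mean. Lhcgr, Amh and Areg kept their difference, Cyp19a1 and Hsd3b1 had a larger one, with lower levels in knockout than in WT cumulus cells, Top2a, Mki67 and Gal gained one, Gpx3 lost one, and the third knockout MGC library was low for Areg, Ptgs2 and Star.

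Genes of the matrix of the expanding cumulus were called in both directions. Of 15 measured genes 7 were higher in knockout MGCs, 4 in knockout cumulus cells and 4 were not called, with a median of 0.76 that became -0.05 with median centring and was 2.27 in WT. Has2, the hyaluronan synthase (ENSMUSG00000022367, chr15:56665627-56694539), was at 25.8, 25.0 and 10.1 FPKM in knockout MGCs and 62.0, 88.3 and 89.6 in knockout cumulus cells. All 3 cumulus libraries were higher, by 2.01 on the log2 scale, adjusted p = 0.0019 with limma, much as in WT (-1.73). Ptx3, which cross-links the matrix, was at 114, 103 and 9.08 FPKM against 526, 337 and 522, a difference of -3.20 (SE 0.87), adjusted p = 0.013 with limma, -2.06 without the third MGC library and not called without the first cumulus library (adjusted p = 0.0501 with limma). Ptges and Ptger2, for the prostaglandin E synthase and receptor, were also cumulus-high, at -1.74 and -1.09, the second not without the first cumulus library (-0.78).

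The other arm of the same list was MGC-high. Adamts1, a protease that cleaves versican, was at 233, 203 and 123 FPKM in knockout MGCs and 2.11, 3.66 and 4.33 in knockout cumulus cells. Vcan, its substrate, differed by 5.48, Pgr, the progesterone receptor, by 5.38 (SE 0.70) and Ptger4 by 3.19. Ptgs2 (cyclooxygenase 2) and Tnfaip6 turned on 1 library. Ptgs2 was at 447, 369.8 and 24.6 FPKM in knockout MGCs and 98.3, 75.6 and 115 in knockout cumulus cells, with the first 2 MGC libraries above and the third below all cumulus libraries. It differed by 0.76 (SE 1.00), adjusted p = 0.52 with limma, with all libraries and by 2.09 (adjusted p = 0.00040 with limma) without the third. Tnfaip6, which transfers inter-alpha-inhibitor heavy chains to hyaluronan, was at 1605, 1385 and 144 FPKM against 425, 576 and 606, 0.37 (SE 0.85) with all libraries and 1.49 (adjusted p = 0.0012 with limma) without the third. Sdc4, a heparan sulfate proteoglycan, lost an MGC-high difference, from 1.82 in WT to -0.28 in knockout, an interaction of -2.10.

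The natriuretic peptide system raises cGMP and so holds the oocyte in meiotic arrest. Of 12 measured genes 5 were higher in knockout MGCs, none in cumulus cells and 7 were not called (4 and 2 were called with median centring), with a median of 0.36 that became -0.45 with median centring. Nppc, the C-type natriuretic peptide ligand, was at 58.6, 51.6 and 89.3 FPKM in knockout MGCs and 19.1, 37.0 and 34.2 in knockout cumulus cells. The groups did not overlap, and the difference of 1.13 (SE 0.31), adjusted p = 0.012 with limma, fell under 2-fold without the third MGC library (0.90) or the first cumulus library (0.84). It is also under 2-fold with median centring, which lowers every knockout difference by 0.81. Npr2, its receptor, was at 60.9, 69.2 and 87.0 FPKM against 17.0, 18.0 and 20.5, 1.90 (SE 0.18) higher in MGCs and 1.80 in WT. Npr1 and Npr3 were MGC-high at 4.82 and 3.16, and for Npr1 the difference was smaller than the 6.21 in WT (interaction -1.39, adjusted p = 0.045 with limma). The Npr1 interaction was not called without WT MGC library 1 or 2, WT cumulus library 1, 2 or 3, or knockout cumulus library 2 or 3 (adjusted p = 0.068 to 0.13 with limma).

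Of 31 measured genes of the inhibins and the TGFB family 16 were higher in knockout MGCs, 3 in knockout cumulus cells and 12 were not called (median 1.10), and 8 were MGC-high and 3 cumulus-high with median centring. Inha, the inhibin alpha subunit, was at 8977, 8439 and 9381 FPKM in knockout MGCs and 1772, 1871 and 1966 in knockout cumulus cells. Inhba and Inhbb, the beta subunits, were called only in knockout, at 1.73 (SE 0.24) and 2.93 (SE 0.57), but their interactions of 1.40 (SE 0.37), adjusted p = 0.057 with limma and 2.49 (SE 0.72), adjusted p = 0.073 with limma did not pass. Inhbb had its highest value in the third MGC library, and its interaction was called without the third WT MGC, first knockout MGC or the third knockout MGC library (adjusted p = 0.038, 0.047 and 0.047 with limma), and that of Inhba without the third WT MGC library (adjusted p = 0.033 with limma). The 3 cumulus-high genes were Id1, Id2 and Id3, targets of BMP signalling that block basic helix-loop-helix factors. Id2 (ENSMUSG00000020644, chr12:25093799-25097140) was at 40.4, 42.9 and 7.56 FPKM in knockout MGCs and 418, 641 and 624 in knockout cumulus cells, against 50.2, 54.8 and 26.0 and 77.7, 70.0 and 102 in WT. The cell types did not overlap in either genotype, but the difference was -4.47 (SE 0.60) in knockout against -0.97 in WT, just under 2-fold, an interaction of -3.50 (SE 0.74), adjusted p = 0.029 with limma. The Id2 interaction was not called without WT MGC library 1 or 2, WT cumulus library 1 or 2, or knockout cumulus library 2 or 3 (adjusted p = 0.072 to 0.089 with limma). Id1 and Id3 were cumulus-high in both genotypes, at -3.18 and -3.60 in knockout.

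Nearly all basement membrane genes were MGC-high. Of 23 measured genes 21 were higher in knockout MGCs and none in cumulus cells (12 and none with median centring). All 23 had every MGC library above every cumulus library, as did 52.8% of all members. The median was 1.86, 1.05 with median centring and 2.67 in WT. Col4a1, a chain of collagen IV, was at 58.2, 60.3 and 38.1 FPKM in knockout MGCs and 0.910, 1.29 and 1.89 in knockout cumulus cells, and Nid2, a nidogen that links collagen to laminin, at 7.27, 6.00 and 6.18 against 0.113, 0.166 and 0.322. Col4a2 and Fn1 differed less without the kinases. Col4a2 had 2.85 in knockout and 4.37 in WT (interaction -1.52, adjusted p = 0.044 with limma), and Fn1, fibronectin, 1.79 and 3.27 (interaction -1.48, adjusted p = 0.035 with limma). The Fn1 interaction was not called without WT MGC library 1 or 2, WT cumulus library 1 or 2, or knockout cumulus library 2 or 3 (adjusted p = 0.072 to 0.090 with limma). The Col4a2 interaction was not called without WT MGC library 1, 2 or 3, knockout MGC library 1, 2 or 3, WT cumulus library 1, 2 or 3, or knockout cumulus library 2 or 3 (adjusted p = 0.055 to 0.11 with limma). With GC content and length removed 9 of the 23 were called, all MGC-high, with a median of 0.59. With that trend removed 17.5% of all genes were called MGC-high and 18.3% cumulus-high, 35.8% in all. Lama1, a laminin chain, turned from 1.42 (SE 0.21) to -0.07 there.

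Further lists of surface and matrix genes are given beside the 33.1% and 14.4% of all genes. In knockout libraries 22 of 30 genes of gap junctions and adhesion, 12 of 21 ovulatory proteases and inhibitors, 17 of 25 Wnt genes and 11 of 19 amino acid transporters were higher in MGCs, and 0, 2, 3 and 0 in cumulus cells, with medians of 1.29, 1.83, 1.57 and 1.31. With median centring 8, 11, 9 and 7 were MGC-high and 1, 3, 3 and 2 cumulus-high, and with GC content and length removed 9, 12, 7 and 5 were MGC-high and 0, 3, 3 and 1 cumulus-high. Gja1, the main connexin of granulosa cells, was at 685, 698 and 767 FPKM in knockout MGCs and 722, 818 and 666 in knockout cumulus cells, and the groups overlapped (-0.03 (SE 0.17)). Cdh2, N-cadherin, differed by 2.94 (SE 0.29). Ctsl, a lysosomal protease of ovulation, was one of the 2 cumulus-high proteases, at 1117, 1203 and 974 FPKM against 2787, 3345 and 2616. In the Wnt list Tcf7l2 and Dkk3 gained a cumulus-high difference, at -1.97 and -1.12, with interactions of -2.11 and -1.28. The Dkk3 interaction was not called without knockout cumulus library 3 (adjusted p = 0.0503 with limma). Wnt4 was MGC-high at 1.57 (SE 0.30). Sfrp4, a secreted Wnt inhibitor, was at 236, 217 and 41.8 FPKM against 18.7, 11.9 and 16.8.

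The cell type difference of 17 mitosis genes changed with genotype. Of 44 measured mitosis genes 23 were higher in WT cumulus cells and 3 in WT MGCs, with a median of -1.09, and in knockout libraries 6 were higher in cumulus cells and 9 in MGCs, with a median of 0.31. The knockout counts depended on the scaling: 18 were cumulus-high and 3 MGC-high with median centring, 10 and 7 with upper-quartile scaling, 9 and 6 with GC content and length removed and 9 and 8 without the third MGC library. The knockout median was -0.50, -0.01, -0.27 and 0.01 in the same 4 cases. The median interaction was 1.37, 1.35 with median centring and 1.12 without that library, and all 44 estimates were above 0 in each. It was called for 17 genes (1.25% of all genes were positive), of which 11 had lost a cumulus-high difference, 3 had gained an MGC-high one and 2 were kept, while 1, Kif4, was called in neither genotype alone. The median change from WT to knockout was -1.13 in cumulus cells and 0.27 in MGCs. The number of calls fell to 3 without the first or second WT MGC library or the first WT cumulus library, to 5 without the second WT cumulus or the third knockout cumulus library and to 6 without the second knockout cumulus library, and it rose to 35 without the first.

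Top2a, the topoisomerase that untangles sister chromatids (ENSMUSG00000020914, chr11:98992943-99024189), was at 42.6, 40.6 and 54.9 FPKM in knockout MGCs and 18.7, 10.5 and 10.6 in knockout cumulus cells. In WT it was at 22.8, 22.6 and 38.7 and 33.6, 37.7 and 33.8. All knockout MGC libraries were above all knockout cumulus libraries, while the WT cell types overlapped. The difference was 1.76 (SE 0.25), adjusted p = 0.00064 with limma, in knockout and -0.35 in WT, an interaction of 2.11 (SE 0.35), adjusted p = 0.013 with limma. Mki67, the proliferation antigen Ki-67, was at 22.2, 22.6 and 41.9 FPKM against 9.81, 8.17 and 8.73 in knockout and 16.7, 15.2 and 21.3 against 21.7, 20.2 and 18.4 in WT, an interaction of 1.71 (SE 0.31), adjusted p = 0.017 with limma. The Mki67 interaction was not called without WT MGC library 1 or 2, or WT cumulus library 1 (adjusted p = 0.053 to 0.059 with limma). Both differences fell below 2-fold with median centring, at 0.95 and 0.72. The kinetochore and checkpoint genes Bub1, Cenpe and Cenpf were lost instead. Bub1 went from -2.19 in WT to -0.24 in knockout, Cenpe from -2.11 to -0.30 and Cenpf from -1.72 to -0.10. Median centring lowers every knockout difference by 0.81 and so moves these genes further to the cumulus side. Birc5 and Ube2c, which act in chromosome segregation and in the degradation of cyclins, stayed cumulus-high at -2.32 and -2.22 but by less than in WT, where they were -4.21 and -3.60. The Bub1 and Birc5 interactions were not called without WT MGC library 1 or 2, WT cumulus library 1 or 2, or knockout cumulus library 2 or 3 (adjusted p = 0.053 to 0.088 with limma). The Ube2c interaction was not called without WT MGC library 1 or 2, WT cumulus library 1 or 2, or knockout cumulus library 3 (adjusted p = 0.051 to 0.067 with limma). Ccnb1, cyclin B1, was at 16.1, 16.4 and 26.0 FPKM in knockout MGCs and 74.4, 42.0 and 31.4 in knockout cumulus cells, called at -1.24 (SE 0.34) but not without the first cumulus library (-0.90).

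Of 40 measured DNA replication genes 21 were higher in WT cumulus cells and 3 in WT MGCs (median -1.10), and in knockout libraries 10 and 11 (median 0.29). In knockout libraries 14 were cumulus-high and 4 MGC-high with median centring, 10 and 9 with upper-quartile scaling, 10 and 4 with GC content and length removed and 11 and 8 without the third MGC library, with medians of -0.52, -0.03, -0.29 and -0.20. The median interaction was 1.40, with 39 of 40 estimates above 0, and 0.95 without the third knockout MGC library. It was called for 4 genes, among them Pola1, Rfc4 and Dut, for 6 without that library and for none without the first or second WT MGC, first or second WT cumulus, or second or the third knockout cumulus library, but for 13 without the first knockout MGC library, 12 without the first knockout cumulus library and 7 without the third WT MGC library. Pola1, the catalytic subunit of the polymerase that starts new strands, was at 3.32, 3.10 and 5.19 FPKM in knockout MGCs and 3.97, 3.13 and 2.27 in knockout cumulus cells, against 2.39, 2.35 and 4.05 and 9.73, 10.8 and 8.26 in WT. The knockout cell types overlapped and the WT ones did not, an interaction of 1.69 (SE 0.32), adjusted p = 0.020 with limma. The Pola1 interaction was not called without WT MGC library 1 or 2, WT cumulus library 1 or 2, or knockout cumulus library 2 or 3 (adjusted p = 0.0502 to 0.067 with limma). Pcna, the sliding clamp, was MGC-high in both genotypes, at 109, 109 and 124 FPKM against 13.8, 11.4 and 10.5. Mcm2 and Mcm5 of the replicative helicase were at 28.8 and 42.2 FPKM in the third MGC library, above the first 2 at 7.54 and 9.15 for Mcm2 and at 12.7 and 15.2 for Mcm5, and were not called. Pclaf, a partner of PCNA in neither list, was cumulus-high in both genotypes, at 9.17, 8.69 and 26.9 FPKM against 59.6, 35.0 and 37.0 in knockout, with an interaction of 2.40 (SE 0.53), adjusted p = 0.033 with limma. The Pclaf interaction was not called without WT MGC library 1 or 2, WT cumulus library 1 or 2, or knockout cumulus library 2 or 3 (adjusted p = 0.076 to 0.095 with limma).

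To show the promoters behind 2 of these mitotic genes, the 150 bases before the start sites of Top2a (chr11:99024190-99024339, minus strand) and Mki67 (chr7:135716380-135716529, minus strand) are shown from RefSeq, GRCm38.p6, written 5′ to 3′. Capitals mark the CCAAT box and the cell cycle element TTTGAA, each on either strand (as ATTGG and TTCAAA on the other). In the 300-base windows CCAAT was found in 72.2% of 36 mitosis genes with a window, 53.8% of 132 members with a positive interaction and 34.8% of 207 with a negative one, against 38.8% of 10043 members and 37.9% of all 27025 promoters. TTTGAA was found in 75.0%, 22.7% and 7.25% of the same sets, against 11.8% of members and 18.1% of all. In the 15 mitosis genes with a window and a positive interaction, CCAAT and TTTGAA were each found in 73.3%, near the shares of all mitosis genes. Not every mitotic promoter held both. The 150 bases before the start sites of Bub1 and Cenpf each held 2 CCAAT boxes and 0 TTTGAA elements. These matches describe the letters of the window only.
Top2a: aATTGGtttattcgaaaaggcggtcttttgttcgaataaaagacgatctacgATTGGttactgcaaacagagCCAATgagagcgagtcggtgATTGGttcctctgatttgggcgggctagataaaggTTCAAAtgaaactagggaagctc
Mki67: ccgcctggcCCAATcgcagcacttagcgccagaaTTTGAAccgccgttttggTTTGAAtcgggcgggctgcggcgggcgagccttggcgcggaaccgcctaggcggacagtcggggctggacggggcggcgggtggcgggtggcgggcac

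Cholesterol synthesis supplies the substrate of steroids. Of 21 cholesterol biosynthesis genes 8 were higher in knockout MGCs, none in cumulus cells and 13 were not called (median 0.65, -0.16 with median centring), and in WT 4 were MGC-high and 6 cumulus-high (median -0.27). The knockout counts were 2 MGC-high and 5 cumulus-high with median centring, 6 and 5 with upper-quartile scaling, 5 and 4 with GC content and length removed and 4 and 3 without the third MGC library. The median interaction was 0.91, with 19 of 21 estimates above 0, and no interaction was called by limma, although 10 genes had an unadjusted p of 0.05 or less. With voom on recovered reads 1 was called, and 7 without the first knockout cumulus library and 5 without the third WT MGC library. Idi1, an isomerase of the pathway, was at 14.2, 12.0 and 18.6 FPKM in knockout MGCs and 63.6, 15.6 and 21.1 in knockout cumulus cells, against 12.9, 10.7 and 20.7 and 106, 93.6 and 135 in WT, an interaction of 2.00 (SE 0.59), adjusted p = 0.078 with limma. The first knockout cumulus library lay apart from the other two, and without it the interaction was called at 2.58.

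Of 21 glycolytic genes 5 were higher in knockout MGCs, 2 in cumulus cells and 14 were not called (median 0.58). With median centring 2 were MGC-high and 7 cumulus-high (median -0.23), with upper-quartile scaling 3 and 4, and with GC content and length removed 2 and 6 (median -0.50). Tpi1 lost a cumulus-high difference and Pgk1 narrowed one, from -2.49 to -1.22. Tpi1, the triose phosphate isomerase, was at 57.4, 58.4 and 87.8 FPKM in knockout MGCs and 123, 112 and 139 in knockout cumulus cells, against 59.3, 61.7 and 77.7 and 276, 343 and 315 in WT, an interaction of 1.33 (SE 0.26), adjusted p = 0.022 with limma. The Tpi1 interaction was not called without WT MGC library 1 or 2, WT cumulus library 2, or knockout cumulus library 2 (adjusted p = 0.061 to 0.075 with limma). Its knockout difference of -0.89 (SE 0.21) was just under 2-fold and passed at -1.09 without the third MGC library. It is also past 2-fold with median centring, which lowers every knockout difference by 0.81. Slc2a1, a glucose transporter, and Hk2, a hexokinase, lost MGC-high differences, from 1.38 to -0.18 and from 1.83 to 0.58. The Slc2a1 interaction was not called without WT MGC library 1 or 2, knockout MGC library 2, WT cumulus library 1 or 2, or knockout cumulus library 3 (adjusted p = 0.051 to 0.11 with limma). The Hk2 interaction was not called without WT MGC library 1 or 2, WT cumulus library 2, or knockout cumulus library 2 or 3 (adjusted p = 0.051 to 0.072 with limma). The Pgk1 interaction was not called without WT MGC library 1 or 2, WT cumulus library 1 or 2, or knockout cumulus library 3 (adjusted p = 0.052 to 0.067 with limma). Of 52 respiratory chain genes 20 were higher in knockout cumulus cells, 8 in MGCs and 24 were not called (33 and 4 were called with median centring and 28 and 5 with upper-quartile scaling), with a median of -0.75 against -1.12 in WT. Only Cox4i2, an isoform of cytochrome oxidase subunit 4, had an interaction call. It was at 2.62, 1.87 and 1.47 FPKM in knockout MGCs and 5.12, 4.94 and 5.16 in knockout cumulus cells, against 6.31, 8.47 and 7.68 and 92.6, 52.6 and 60.7 in WT (interaction 1.96 (SE 0.29), adjusted p = 0.0086 with limma), and its knockout call was lost without the third MGC library (-0.91).

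Immediate early genes are induced within minutes of a stimulus. Of 24 genes 17 were MGC-high and 1 cumulus-high in WT (median 2.03), and 11 and 5 in knockout (median 0.92). The knockout counts were 5 MGC-high and 7 cumulus-high with median centring and 5 and 6 with GC content and length removed (median -0.03). All 24 interaction estimates were below 0, with a median of -1.23 (-0.86 without the third knockout MGC library, 23 of 24 below 0), but only Fosl1 was called, and none without the first or second WT MGC, first or second WT cumulus, or second or the third knockout cumulus library. Without the third WT cumulus library 5 were called, and without the first knockout cumulus library 3. The median change from WT to knockout was 0.83 in cumulus cells and -0.41 in MGCs. Nr4a1, an orphan nuclear receptor, was at 484, 453 and 400.3 FPKM in knockout MGCs and 12.9, 24.4 and 22.5 in knockout cumulus cells, and at 660.2, 669 and 645 and 7.88, 3.44 and 18.5 in WT. Its interaction of -1.71 (SE 0.58), adjusted p = 0.11 with limma did not pass, except without the third WT cumulus library (-2.25). Fos itself was on the cumulus side, at 134, 126 and 74.8 FPKM against 217, 261 and 182, but its call at -1.01 (SE 0.26) was lost without the third MGC library (-0.75) or the second cumulus library (-0.88). Fosl1, a Fos-related factor, was at 8.23, 7.13 and 3.76 FPKM in knockout MGCs and 14.6, 20.2 and 25.6 in knockout cumulus cells, gained at -1.54 with an interaction of -2.45, adjusted p = 0.033 with limma.

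**Figure D5:**
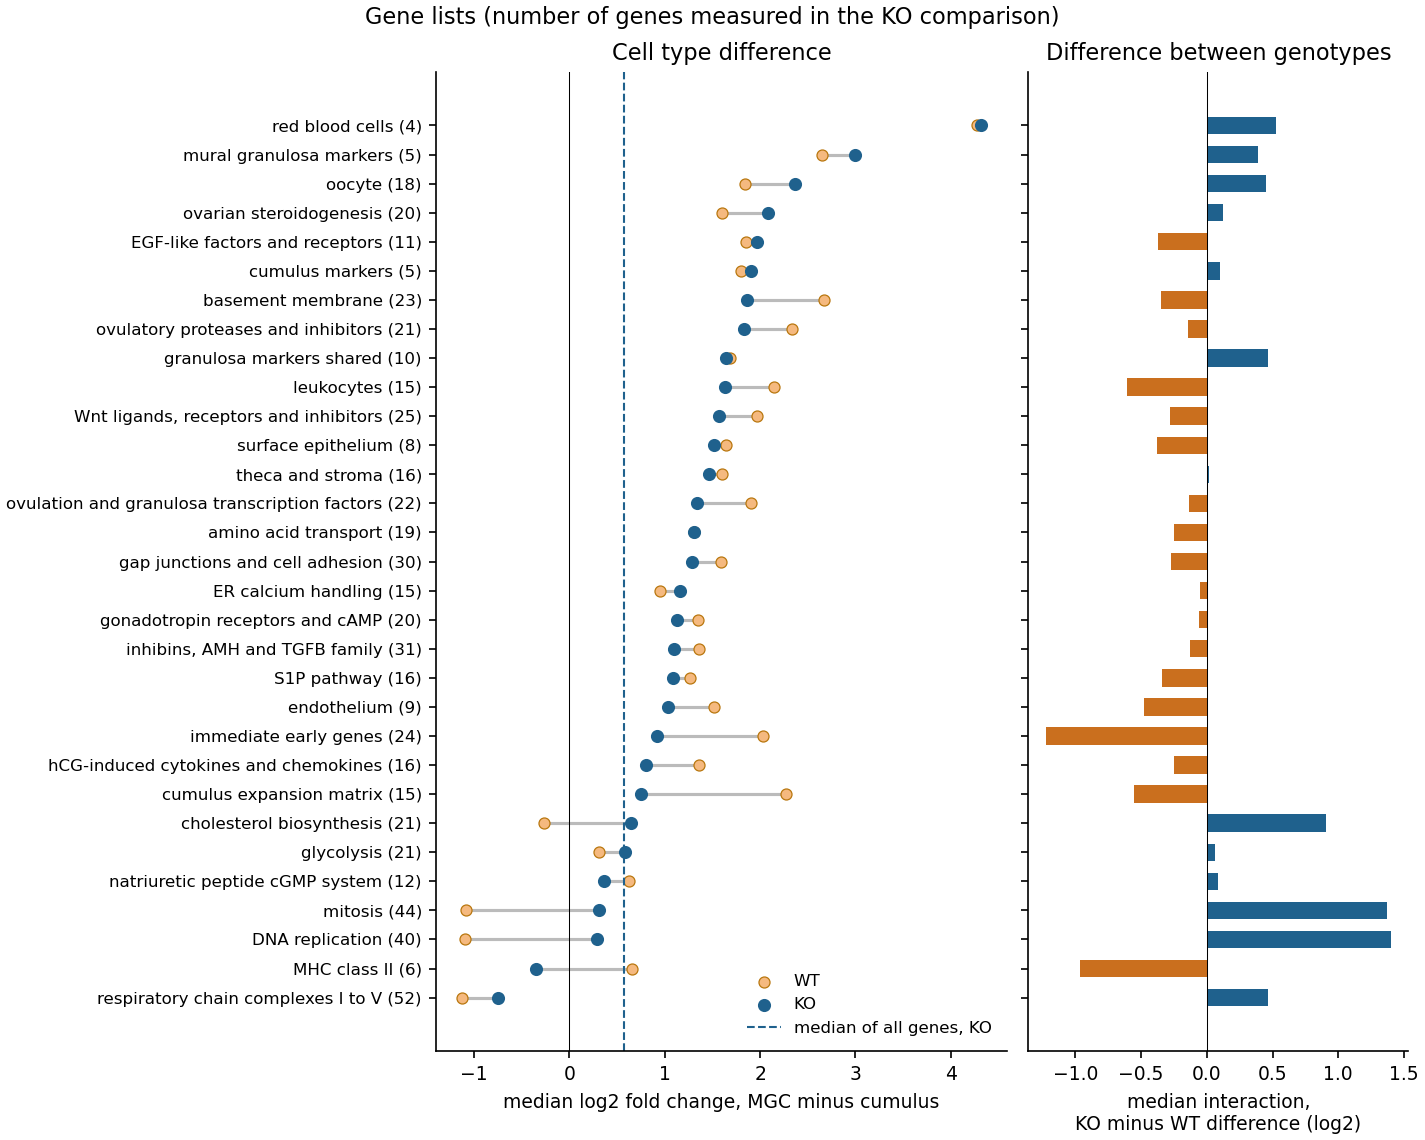
Median log2 difference between MGCs and cumulus cells of 31 gene lists in knockout (blue) and WT (orange) libraries, with the number of genes measured and the knockout median of all genes, 0.58, as a dashed line (left), and the median interaction (right). Mitosis and DNA replication were at -1.09 and -1.10 in WT and 0.31 and 0.29 in knockout (KO), immediate early genes at 2.03 and 0.92, and respiratory chain genes were on the cumulus side in both.

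The largest negative interactions included several genes whose MGC-high difference was lost. Gpx3, the extracellular glutathione peroxidase (ENSMUSG00000018339, chr11:54902453-54910377), was at 42.3, 50.5 and 44.1 FPKM in knockout MGCs and 56.4, 55.7 and 71.6 in knockout cumulus cells, against 169, 205 and 68.0 and 9.59, 9.33 and 15.4 in WT. The knockout MGC libraries were below every WT MGC library, and the knockout cumulus libraries above every WT cumulus library. The interaction was -3.87 (SE 0.47), adjusted p = 0.0041 with limma. With median centring, which lowers every knockout difference by 0.81, the knockout difference of Gpx3 lies further to the cumulus side. Itih5 and Itih2, heavy chains of the inter-alpha-trypsin inhibitor family, lost differences of 4.55 and 3.23, with interactions of -4.18 (SE 0.69) and -3.59 (SE 0.70). The Itih2 interaction was not called without WT MGC library 1 or 2, WT cumulus library 1, or knockout cumulus library 2 or 3 (adjusted p = 0.060 to 0.069 with limma). Itih5 was at 12.1, 33.5 and 30.7 FPKM in knockout cumulus cells and 1.20, 1.10 and 0.980 in WT cumulus cells, with no overlap. Mug2, a protease inhibitor, lost 3.41 (interaction -3.27 (SE 0.77)). The Mug2 interaction was not called without WT MGC library 1 or 2, WT cumulus library 1, 2 or 3, or knockout cumulus library 2 or 3 (adjusted p = 0.068 to 0.11 with limma). Spin2c, of the spindlin family, lost a cumulus-high difference of -1.99 (interaction 2.63 (SE 0.48)). The Spin2c interaction was not called without WT MGC library 1 or 2, or WT cumulus library 1 (adjusted p = 0.053 to 0.055 with limma).

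Other negative interactions came from genes that were more cumulus-high without the kinases. Gal, the neuropeptide galanin (ENSMUSG00000024907, chr19:3409915-3414544), was at 8.78, 13.0 and 1.32 FPKM in knockout MGCs and 109, 270.4 and 396 in knockout cumulus cells. In WT it was at 10.8, 12.8 and 2.33 and 5.93, 6.48 and 5.92. Every knockout cumulus library exceeded every other library, and the difference was -5.06 (SE 0.72), adjusted p = 0.00061 with limma, an interaction of -5.26 (SE 0.97), adjusted p = 0.018 with limma and -4.48 without the third knockout MGC library. Spp1 (osteopontin) and Il23a, a subunit of interleukin 23, were cumulus-high in both genotypes but by more in knockout. Spp1 was at 7.16, 10.1 and 0.504 FPKM against 436, 231 and 353 in knockout and 11.9, 11.8 and 5.61 against 61.7, 53.6 and 42.6 in WT (interaction -3.64 (SE 0.84), adjusted p = 0.037 with limma). Il23a was at 431, 252 and 403 FPKM in knockout cumulus cells and 12.3, 19.4 and 31.4 in WT cumulus cells (interaction -3.08 (SE 0.61), adjusted p = 0.023 with limma). The Gal interaction was not called without WT MGC library 1 or 2, WT cumulus library 1, or knockout cumulus library 2 or 3 (adjusted p = 0.0502 to 0.060 with limma). The Spp1 interaction was not called without WT MGC library 1 or 2, WT cumulus library 1, 2 or 3, or knockout cumulus library 2 or 3 (adjusted p = 0.066 to 0.11 with limma). The Il23a interaction was not called without WT MGC library 1 or 2, WT cumulus library 1 or 2, or knockout cumulus library 3 (adjusted p = 0.055 to 0.071 with limma).

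Positive interactions included gains on the MGC side. Defb19, a beta-defensin, was at 42.5, 48.9 and 80.9 FPKM in knockout MGCs and 4.31, 5.27 and 4.90 in knockout cumulus cells, against 23.5, 26.8 and 33.0 and 20.8, 13.7 and 14.2 in WT (interaction 2.52 (SE 0.33), adjusted p = 0.0051 with limma). Zpld1, a protein with a zona pellucida-like domain, was at 122, 107 and 27.7 FPKM against 11.7, 8.11 and 4.39 in knockout and 92.2, 100.1 and 111 against 85.2, 58.8 and 114 in WT (interaction 2.81 (SE 0.68), adjusted p = 0.044 with limma). The Zpld1 interaction was not called without WT MGC library 1 or 2, knockout MGC library 1 or 2, WT cumulus library 1, 2 or 3, or knockout cumulus library 2 or 3 (adjusted p = 0.062 to 0.12 with limma). For both Defb19 and Zpld1 the WT cumulus level was above the knockout cumulus level in every library. Tmem45a, a transmembrane protein, gained 1.90 (SE 0.28) (interaction 2.36 (SE 0.48)). The Tmem45a interaction was not called without WT MGC library 1 or 2, WT cumulus library 1, or knockout cumulus library 2 or 3 (adjusted p = 0.055 to 0.082 with limma). Tnni3, a cardiac troponin, stayed cumulus-high at -1.17 (SE 0.36) against -3.77 in WT, and its knockout call did not hold without the first or second MGC library or the first or the third cumulus library (adjusted p = 0.076, 0.074, 0.072 and 0.068 with limma).

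Of the 7 genes that turned over, 5 were MGC-high in WT and cumulus-high in knockout. Fhl1, a LIM-domain protein of the cytoskeleton, was at 16.9, 19.6 and 16.7 FPKM in knockout MGCs and 41.9, 72.0 and 64.9 in knockout cumulus cells, against 51.9, 55.2 and 18.5 and 13.2, 12.3 and 14.4 in WT. The cell types did not overlap in either genotype, with -1.66 (SE 0.23) in knockout and 1.44 in WT. Median centring, which moved the WT median of all genes from 0.58 to -0.22, takes the WT difference of Fhl1 below 2-fold. Tpm1 (tropomyosin 1), Ckb (a creatine kinase), Prkd1 (protein kinase D1) and Slc9a2 (a sodium-proton exchanger) had interactions of -2.80 (SE 0.49), -2.92 (SE 0.42), -2.53 (SE 0.43) and -2.47 (SE 0.47), and Slc9a2 was not called in knockout without the third cumulus library (adjusted p = 0.059 with limma). The Slc9a2 interaction was not called without WT MGC library 1 or 2, WT cumulus library 1, or knockout cumulus library 2 (adjusted p = 0.0502 to 0.067 with limma). The Tpm1 interaction was not called without WT MGC library 1 (adjusted p = 0.052 with limma). Aldh1a7, an aldehyde dehydrogenase, and Gm12396, a pseudogene whose reads can come from its parent gene, went the other way. Aldh1a7 was at 5.63, 4.43 and 5.97 FPKM in knockout MGCs and 2.39, 1.35 and 1.74 in knockout cumulus cells, against 5.43, 5.68 and 9.39 and 18.3, 22.0 and 19.2 in WT (interaction 2.62 (SE 0.29), adjusted p = 0.0027 with limma). With median centring its knockout difference was 0.36 and no longer called.

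The sphingosine kinases make S1P, and genes of its pathway were called in 1 direction only. Of 16 measured genes 9 were higher in knockout MGCs and none in cumulus cells (median 1.09, 1.27 in WT), and 4 and none with median centring. Sgpl1, the lyase that degrades S1P, was at 16.2, 17.3 and 16.3 FPKM in knockout MGCs and 1.75, 1.59 and 2.33 in knockout cumulus cells, and at 22.0, 20.9 and 18.8 and 1.38, 1.33 and 1.36 in WT. Of the receptors S1pr1 was at 4.69, 3.93 and 2.09 FPKM against 1.01, 0.399 and 0.719, S1pr2 at 1.67, 2.04 and 2.09 against 0.306, 0.286 and 0.497, and S1pr3 at 0.555, 0.701 and 0.818 against 0.0595, 0.227 and 0.0935. The first 2 were called at 1.39 (SE 0.27) and 1.11 (SE 0.16), both under 2-fold with median centring (0.58 and 0.30). Sgpp2, a phosphatase that returns S1P to sphingosine, lost its MGC-high difference, from 1.62 to 0.11 (interaction -1.51, adjusted p = 0.031 with limma). The Sgpp2 interaction was not called without WT MGC library 1 or 2, WT cumulus library 1 or 2, or knockout cumulus library 2 or 3 (adjusted p = 0.076 to 0.094 with limma). Of 15 genes of endoplasmic reticulum calcium handling 9 were MGC-high and 2 cumulus-high (median 1.16), but 2 and 3 with median centring and 1 and 2 with GC content and length removed. Atp2a2, the SERCA2 pump, was at 116, 124 and 155 FPKM against 52.3, 54.6 and 68.4, and Pln, which encodes its inhibitor phospholamban, was at most 0.108 FPKM in any of the 12 libraries and was not among the members. Itpr1, a receptor that releases calcium, was MGC-high by 1.37 (SE 0.25) against 2.84 in WT (interaction -1.46 (SE 0.28), adjusted p = 0.022 with limma). The Itpr1 interaction was not called without WT MGC library 1 or 2, WT cumulus library 1 or 2, or knockout cumulus library 2 or 3 (adjusted p = 0.053 to 0.070 with limma).

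Of 20 gonadotropin receptor and cAMP genes 11 were higher in knockout MGCs and 2 in cumulus cells (median 1.13), against 33.1% and 14.4% of all genes, with 6 and 3 with median centring and 4 and 4 with GC content and length removed. Prkar2b, a regulatory subunit of protein kinase A, was at 523, 458 and 787 FPKM in knockout MGCs and 72.7, 66.3 and 61.1 in knockout cumulus cells, against 207, 165 and 202 in WT cumulus cells (interaction 1.44 (SE 0.35), adjusted p = 0.043 with limma). The Prkar2b interaction was not called without WT MGC library 1 or 2, knockout MGC library 1, WT cumulus library 1, 2 or 3, or knockout cumulus library 2 or 3 (adjusted p = 0.051 to 0.12 with limma). Of 22 ovulation and granulosa transcription factors 13 were MGC-high and 1 cumulus-high (median 1.34), with 8 and 5 with median centring and 6 and 4 with GC content and length removed. Nr5a2, a nuclear receptor needed for ovulation, was at 275, 249.8 and 329 FPKM in knockout MGCs and 7.22, 10.5 and 10.6 in knockout cumulus cells, and at 32.3, 25.0 and 27.5 in WT cumulus cells (interaction 1.53 (SE 0.25), adjusted p = 0.013 with limma). Of 16 hCG-induced cytokines and chemokines 3 were MGC-high and none cumulus-high, against 33.1% and 14.4% of all genes. With median centring 3 were MGC-high, against 14.6% of all genes, and without the third MGC library 8 were, against 31.9%. Their median of 0.81 was -0.0038 with median centring and 1.30 without that library. Cxcl1, a neutrophil chemokine, was at 112, 98.0 and 3.33 FPKM in knockout MGCs and 148, 145 and 146 in knockout cumulus cells, all cumulus libraries above all MGC libraries. The difference of -2.01 (SE 1.14), adjusted p = 0.15 with limma, was not called and was -0.48 without the third MGC library.

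Class II genes of the major histocompatibility complex, which present antigen on leukocytes, were mostly not called in knockout libraries. Of 6 measured genes 1, Cd74, was called (MGC-high, none with median centring and 3 of 6 without the third MGC library), and the median was -0.35, or 1.01 without that library. H2-Aa was at 36.3, 49.6 and 1.68 FPKM in knockout MGCs and 21.8, 16.7 and 31.0 in knockout cumulus cells, against 1.46, 0.604 and 0.760 and 0.331, 0.178 and 0.122 in WT. The knockout cell types overlapped, all 6 knockout libraries lay above all 6 WT libraries, and the third knockout MGC library was the lowest of the 6. Cd74, the invariant chain, was at 93.1, 114 and 6.55 FPKM in knockout MGCs and 3.69, 1.54 and 5.69 in knockout cumulus cells. Its call was lost without the first or second MGC library or the first or second cumulus library (adjusted p = 0.061, 0.056, 0.056 and 0.064 with limma).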

How the data were processed

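RNA from 12 libraries, 3 of MGCs and 3 of cumulus cells in each genotype, was sequenced. The authors deposited FPKM values per Ensembl gene in 1 table for each cell type, with 33137 genes listed for cumulus cells and 29101 for MGCs. The submitters' processing notes name HISAT2 and GRCm38, and the counting tool is not given in the sources used here. Groups came from the sample labels, and no column was left unused. Symbols, GC content and lengths came from GENCODE M21, and 54 genes were not in it.

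The tables were joined by Ensembl ID, and genes whose mean reached 0.5 FPKM in one of the groups compared were tested on log2(FPKM + 1) with limma 3.58.1 (lmFit, eBayes with a trend) in R 4.3.3. Knockout libraries and WT libraries were fitted separately for the cell type difference and all 12 together for the interaction. P-values were adjusted by the Benjamini-Hochberg method over all genes tested, and a call needed an adjusted p of 0.05 and a log2 fold change of 1. The fit was first tested on simulated data. Recovered reads, 16100365 to 19761604 per library, limit the precision of low genes.

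Genes were named as the 12 largest calls in each direction, the 8 largest interactions in each direction, fixed anchors of each gene list, and genes named in the study. A few genes that these rules name are not reported here. Genes of a list beyond its anchors, and the genes that turned over, were named after their values were seen. The members and lists were chosen with earlier results of these data known. Alternatives were a pseudocount of 0.1, no filter or a mean of 2 FPKM, median centring, upper-quartile scaling, array weights, voom on recovered reads, a replicate block, each library left out, no fold threshold and, chosen after seeing the data, removal of the trend of GC content and length.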

Additional observations from a re-analysis of the deposited data

Results flagged for a closer look

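The cell type difference differed between the genotypes, by the limma interaction, for 499 members. Among the genes given by the naming rules or named in the text, the called interactions on the log2 scale (knockout difference minus WT difference) above 0 were Gm12396 4.65, Cyp19a1 3.05, Zpld1 2.81, Spin2c 2.63, Aldh1a7 2.62, Tnni3 2.60, Defb19 2.52, Pclaf 2.40, Tmem45a 2.36, Hsd3b1 2.25, Hsd17b1 2.13, Top2a 2.11, Bub1 1.96, Cox4i2 1.96, Rfc4 1.95, Birc5 1.88, Cenpe 1.81, Mki67 1.71, Pola1 1.69, Cenpf 1.62, Stard4 1.59, Nr5a2 1.53, Prkar2b 1.44, Kif4 1.39, Ube2c 1.38, Dut 1.33, Tpi1 1.33 and Pgk1 1.27. Those below 0 were Gal -5.26, Itih5 -4.18, Gpx3 -3.87, Spp1 -3.64, Itih2 -3.59, Id2 -3.50, Mug2 -3.27, Fhl1 -3.10, Il23a -3.08, Ckb -2.92, Tpm1 -2.80, Phxr4 -2.56, Prkd1 -2.53, Fam196a -2.51, Slc9a2 -2.47, Fosl1 -2.45, Hbegf -2.12, Tcf7l2 -2.11, Sdc4 -2.10, Slc38a3 -1.95, Scarb1 -1.74, Slc2a1 -1.57, Col4a2 -1.52, Sgpp2 -1.51, Fn1 -1.48, Itpr1 -1.46, Npr1 -1.39, Dkk3 -1.28, Hk2 -1.25 and Pdgfrb -1.22. The Phxr4 interaction was not called without WT MGC library 1 or 2, WT cumulus library 1 or 2, or knockout cumulus library 2 (adjusted p = 0.055 to 0.069 with limma). The Slc38a3 interaction was not called without WT MGC library 1 or 2, WT cumulus library 1, or knockout cumulus library 3 (adjusted p = 0.053 to 0.070 with limma). The Rfc4, Kif4 and Fosl1 interactions were not called without WT MGC library 1 or 2, WT cumulus library 1 or 2, or knockout cumulus library 2 or 3 (adjusted p = 0.062 to 0.099 with limma). The Dut interaction was 0.99, under the 2-fold limit, without knockout MGC library 3 and was not called without any one of 7 other libraries (WT MGC 1 and 2, WT cumulus 1, 2 and 3, knockout cumulus 2 and 3; adjusted p = 0.073 to 0.14 with limma).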

How the results depend on the processing

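With median centring the knockout counts of MGC-high and cumulus-high genes were 2183 and 4337 and the WT counts 2528 and 4638, and with GC content and length removed the MGC-high counts were 2626 and 3013. Without a fold threshold 7441 knockout genes were MGC-high, and 8520 and 4033 WT genes were called in the 2 directions. Positive and negative interactions numbered 89 and 162 with no filter on low values (82 lost, 63 gained), where more genes were tested, and 580 and 914 with array weights (480 lost, 258 gained, 21 opposite). Opposite genes numbered 38 with a pseudocount of 0.1 and 35 with voom. The labels do not say whether replicate numbers pair the cell types, and the main fit did not pair them. The correlations of same-numbered deviations were -0.198, 0.042 and -0.191 in knockout and 0.003, 0.047 and 0.018 in WT. With 3 libraries per group these values cannot exclude that same-numbered libraries shared animals. With the replicate number as a block 20 and 36 interactions were called (16 lost, 15 gained).

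Leaving out libraries gave 4736 to 5188 MGC-high and 2045 to 2279 cumulus-high knockout genes, 5126 to 5537 and 2410 to 2499 in WT, 0 to 405 positive and 0 to 608 negative interactions, 0 to 341 lost, 0 to 201 gained and 7 to 25 opposite genes. Without the third MGC library of both genotypes the interactions were 414 and 656 (339 lost, 224 gained). Both 0 counts in limma came without the first or the second replicate of all groups, where 2914 and 1507 genes had an unadjusted p under 0.05. With GC content and length removed Egr1 (-0.012), Lama1 (-0.073), S1pr2 (-0.12) and Pdgfrb (-1.10) reversed, as did H2-Aa with array weights (1.12), for which the cause was not tested. Depth and 3 libraries per group limit what low genes can show.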
